A study of Mus musculus with 20 samples.

Results

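The aminoacyl-tRNA synthetases are the enzymes that join each amino acid to its transfer RNA (tRNA). The members described here are 35 listed synthetase genes, 20 of the cytosol and 15 of the mitochondrion, matched by name to Ensembl identifiers of a count table of 37620 genes. All 35 were found, and all 35 passed the filter on low counts that left 17824 genes for testing. RNA was measured in B220+ cells (B220 is a form of CD45 carried by B cells) of mice on a C57BL/6 background. The cells were taken with magnetic beads from VavPBcl2/Myc lymphomas (n = 8), from VavPBcl2/vector lymphomas (n = 8) and from normal spleen (n = 4). Both lymphoma groups carry VavPBcl2, a Bcl2 transgene driven by the Vav promoter, which is active across blood cells, so they share forced expression of an inhibitor of apoptosis. The normal spleens are not labelled as carrying it. The Myc group was transduced with Myc, a transcription factor, and the vector group with the empty vector. Age and sex are not in the labels. Whether each sample of a group is from its own mouse is not stated either, and the p-values cover only sample-to-sample spread, which may be technical.

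Cytosolic synthetases feed the ribosomes that make most proteins of the cell. 8 of the listed cytosolic enzymes (Dars, Eprs, Iars, Kars, Lars, Mars, Qars and Rars) sit in a multi-synthetase complex held together by the scaffold proteins Aimp1, Aimp2 and Eef1e1. The listed mitochondrial synthetases, written with a final 2, are also encoded in the nucleus and charge the tRNAs of the mitochondrial genome. The list holds no separate mitochondrial gene for glycine or lysine. Gars and Kars are counted as cytosolic by the list alone, and any mitochondrial product of these genes was not measured apart. When amino acids run short, uncharged tRNA activates the kinase Gcn2, the transcription factor Atf4 is made, and Atf4 binds amino acid response elements at Asns and at several cytosolic synthetase genes. Myc is known to bind E-boxes and to act on genes for ribosomes and translation in growing cells.

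The samples held 28.73 to 56.3 M (1000000) gene counts, which were 37.1 to 57.0% of the reads listed. All 8 Myc lymphomas, vector replicates 7 and 8 and normal replicates 2 to 4 came from earlier sequencing runs by run number, and vector replicates 1 to 6 and normal replicate 1 from later ones. Each comparison was therefore repeated within the 13 samples of the earlier runs and, over all samples, with run as a term. Vector replicates 7 and 8 also share a title prefix that no other sample carries. Within the vector lymphomas, run and title prefix therefore cannot be told apart. Levels are given as CPM (counts per 1000000, scaled by TMM). A gene was called when its adjusted p lay under 0.05 in edgeR's quasi-likelihood test with Benjamini-Hochberg adjustment over all 17824 genes, and log2 fold changes carry their SE. Myc RNA was 313 CPM at the lowest, 909 at the median and 1646 at the highest in Myc lymphomas, against 48.4, 101 and 226 CPM in vector lymphomas. In normal spleen it was 229, 218, 179 and 343 CPM. The log2 fold change of Myc in Myc against vector lymphomas was 3.05 ± 0.35 (adjusted p = 1.2e-06). It was not called between vector lymphomas and normal spleen (-1.04 ± 0.39, adjusted p = 0.095). The summed CPM of 9 pan-B-cell markers spanned 935 to 5830 (Myc lymphomas), 5230 to 9250 (vector lymphomas) and 5560 to 6700 (normal spleen), and 8 of the 9 fell in Myc against vector lymphomas. In such bulk RNA fewer cells of a type and less RNA per cell cannot be told apart.

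The promoters of the members hold 2 short motifs that bear on these pathways, and the stretches around them are shown so that the letters behind the counts can be read. RefSeq promoter windows of GRCm38.p6, which run from 250 bases before the start to 50 after it, were matched for 26 of the 35 members, 13 cytosolic and 13 mitochondrial. The E-box CACGTG, which reads the same on both strands, lay in 4 of the 13 cytosolic windows (30.8%) and in 1 of the 13 mitochondrial windows (7.69%), against 7.15% of all 32851 windows and 9.45% of the windows of tested genes. The core of the amino acid response element, TGATGNAA on either strand, lay in 5 of the 13 cytosolic windows (38.5%) and in 0 of the 13 mitochondrial windows, against 3.97% of all windows and 2.41% of those of tested genes. Farsb carried the E-box alone, Gars and Yars the response element core alone, and Aars, Iars and Tars both. No occurrence of 1 motif overlapped an occurrence of the other. The bases before the start of Farsb (chr1:78488898-78489017, minus strand) and of Gars (chr6:55037881-55038000, plus strand) follow from 5′ to 3′, with the motif in capitals; neither stretch overlaps an annotated exon.
Farsb: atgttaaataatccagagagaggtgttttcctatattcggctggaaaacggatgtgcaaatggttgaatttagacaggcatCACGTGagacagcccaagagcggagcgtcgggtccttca
Gars: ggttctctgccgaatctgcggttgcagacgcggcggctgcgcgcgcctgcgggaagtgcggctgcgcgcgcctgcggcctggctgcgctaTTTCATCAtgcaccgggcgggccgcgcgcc
Response element cores of other members, each within 30 bases, were these.
Yars (chr4:129189895-129189924, plus strand): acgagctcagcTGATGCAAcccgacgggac
Aars (chr8:111033840-111033869, plus strand): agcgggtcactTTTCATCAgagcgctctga
Iars (chr13:49682126-49682155, plus strand): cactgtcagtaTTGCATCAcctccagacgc
Tars (chr15:11399655-11399684, minus strand): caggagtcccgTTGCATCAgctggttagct
The other E-boxes were these.
Aars (chr8:111033685-111033714, plus strand): gtcaaccctgtCACGTGacactccatgtcc
Iars (chr13:49682050-49682079, plus strand): accaatcgccaCACGTGttgtttgtaggtg
Tars (chr15:11399621-11399650, minus strand): ccgcctgtggcCACGTGgcgcacgcgcagt
Ears2 (chr7:122067047-122067076, minus strand): gcgaaggagccCACGTGtgtgtttctagtc
A match describes these letters and is not evidence of binding.

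Per kilobase of the longest protein-coding transcript, cytosolic synthetases were the more abundant set in every group. The median gene of the cytosolic set held 45.0 CPM per kb in Myc lymphomas, 37.9 in vector lymphomas and 28.2 in normal spleen, and the median gene of the mitochondrial set 9.91, 9.41 and 8.28. Vars, the valine enzyme, led the cytosolic set at 138 ± 27.8 CPM per kb in Myc lymphomas, 150 ± 29.3 in vector lymphomas and 118 ± 18.1 in normal spleen (SD, n = 8, 8 and 4). Kars, the lysine enzyme, came next at 108 ± 24.1, 66.3 ± 8.05 and 51.9 ± 2.1. The lowest members were mitochondrial in each group: Nars2, the asparagine enzyme, held 2.69 ± 0.54 CPM per kb in vector lymphomas and Wars2, the tryptophan enzyme, held 2.88 ± 0.29. Lars2, the mitochondrial leucine enzyme, stood outside this order at 920 ± 1030 CPM per kb in Myc lymphomas, 1280 ± 1770 in vector lymphomas and 238 ± 134 in normal spleen, an SD as large as its mean in both lymphoma groups.

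**Figure D1:**
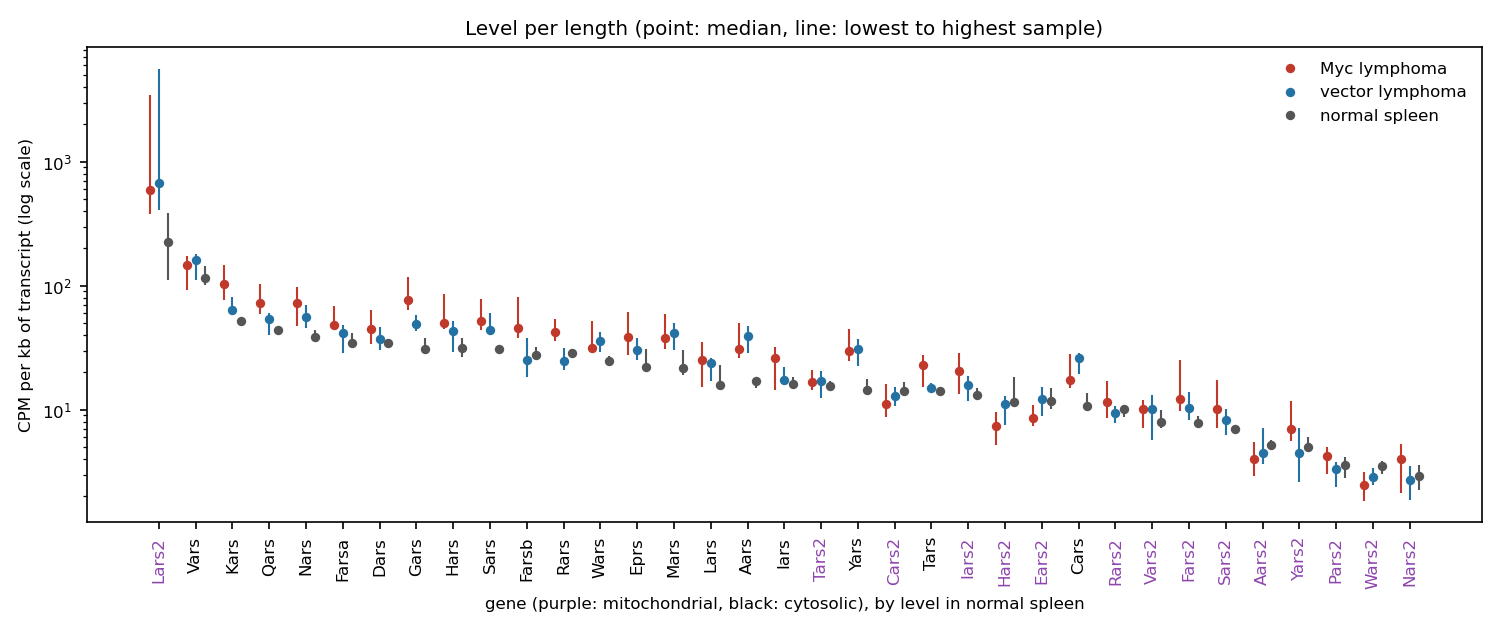
Level of each of the 35 synthetase genes in CPM per kb of transcript, on a log axis, with Myc lymphomas, vector lymphomas and normal spleen side by side; points are medians and lines run from the lowest to the highest sample. The 9 lowest genes in normal spleen are mitochondrial, Lars2 is the highest in every group, and its lines are the longest.

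In Myc against vector lymphomas, 10 of the 20 cytosolic synthetases rose, 1 fell and 9 were not called. Of all genes tested, 26.6% rose and 21.9% fell in this comparison, 48.6% in all. The median log2 fold change of the cytosolic set was 0.35, against 0.08 over all genes tested. The genes that rose were Rars, Gars, Farsb, Kars, Tars, Qars, Iars, Farsa, Eprs and Hars, and 5 of them are among the 8 enzymes of the multi-synthetase complex. Every change was under 2-fold, the highest being 1.92-fold for Farsb.

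Rars, the arginine enzyme (ENSMUSG00000018848), held 76.1 CPM at the lowest, 89.6 at the median and 114 at the highest in Myc lymphomas, against 44.0, 52.0 and 65.8 CPM in vector lymphomas. All 8 Myc lymphomas lay above all 8 vector lymphomas, and Rars was 1.76-fold higher (0.81 ± 0.12, adjusted p = 1.4e-05). Gars, the glycine enzyme (ENSMUSG00000029777), also did not overlap, at 152, 182 and 278 CPM in Myc lymphomas against 103, 118 and 137 CPM in vector lymphomas (0.74 ± 0.13, adjusted p = 8.5e-05). These were the 2 cytosolic members without overlap, a pattern that 5.12% of all genes tested showed upwards and 6.38% downwards. Farsb encodes the beta chain of the phenylalanine enzyme (ENSMUSG00000026245), and held 76.5, 93.5 and 166 CPM in Myc lymphomas against 37.1, 50.8 and 77.1 CPM in vector lymphomas. The groups met only where vector replicate 7, at 77.1 CPM, lay above Myc replicate 3, at 76.5 CPM (0.94 ± 0.17, adjusted p = 0.00014). Farsa, which encodes the alpha chain, rose less (0.37 ± 0.13, adjusted p = 0.028), and the difference between the chains was not tested. Kars (ENSMUSG00000031948) held 169, 226 and 319 CPM in Myc lymphomas against 128, 139 and 179 CPM in vector lymphomas, with overlap at the edges (0.71 ± 0.14, adjusted p = 0.00031).

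**Figure D2:**
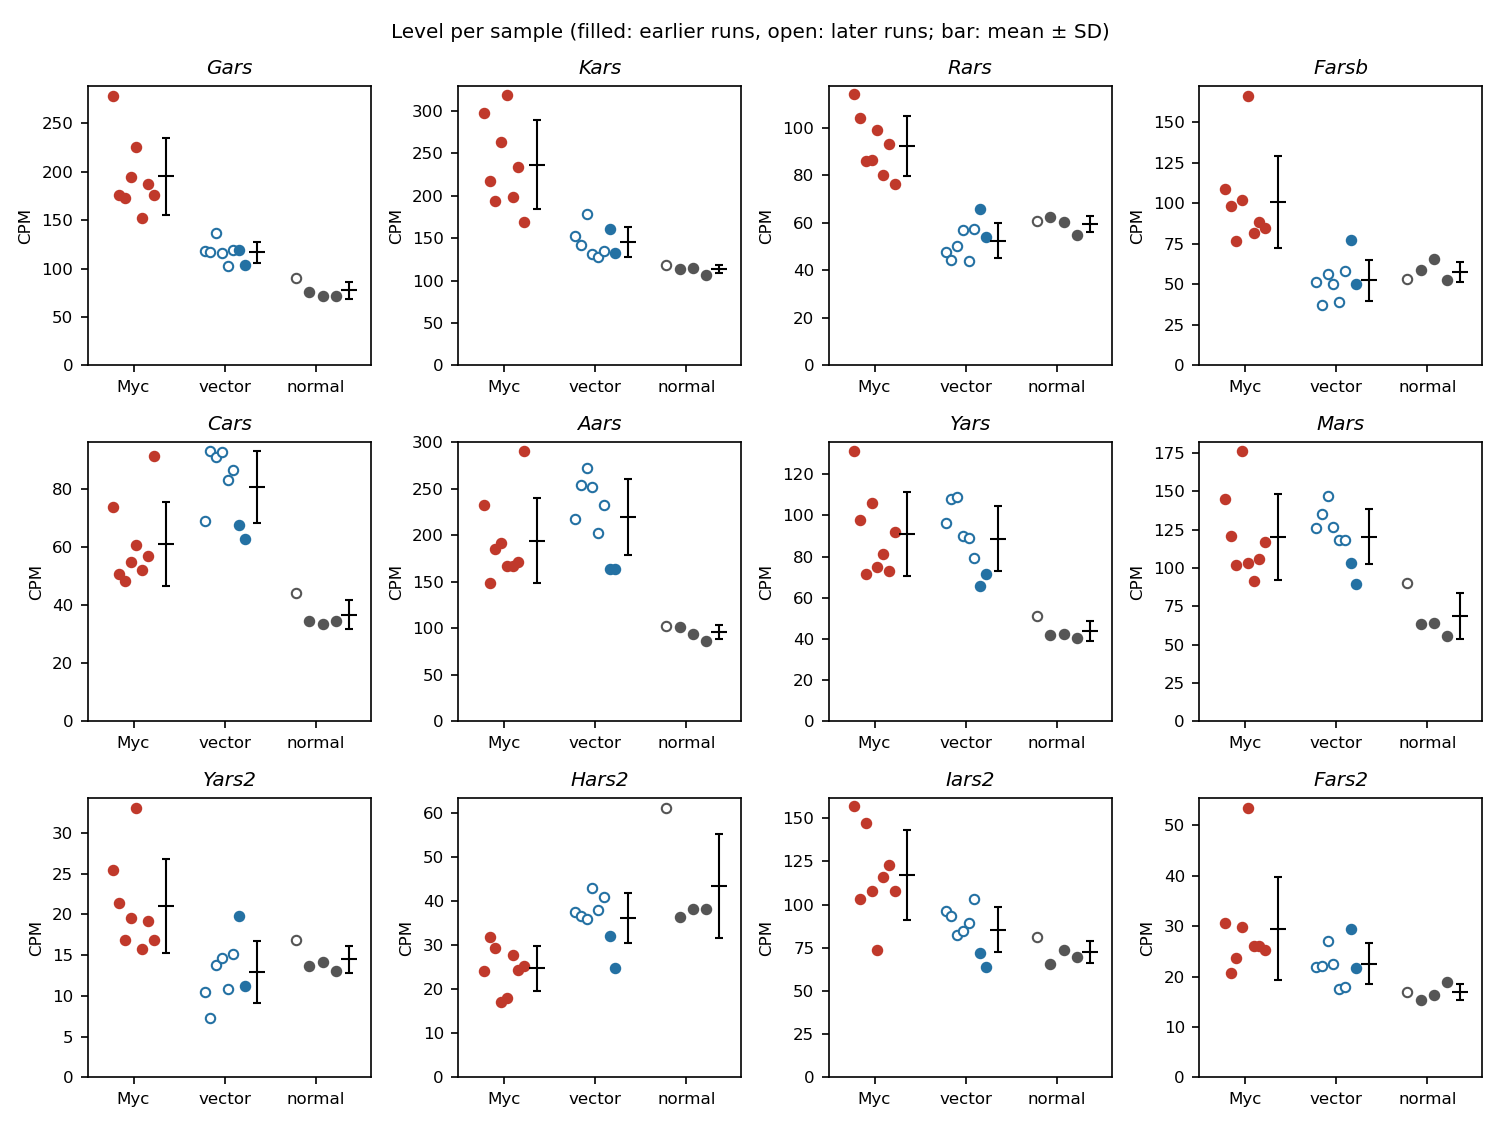
CPM of 12 synthetase genes in every sample, with Myc lymphomas, vector lymphomas and normal spleen from left to right; filled points are earlier runs, open points later runs, and the bar is the mean ± SD. Gars and Rars separate Myc from vector lymphomas, Cars, Aars and Yars separate both lymphoma groups from normal spleen, and the 2 filled vector points lie lowest of their group in Cars, Aars, Yars, Mars, Hars2 and Iars2.

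Cars, the cysteine enzyme (ENSMUSG00000010755), went against the set. It held 48.2 CPM at the lowest, 55.9 at the median and 91.4 at the highest in Myc lymphomas, against 62.7, 84.8 and 93.1 CPM in vector lymphomas, and it fell by 0.40 ± 0.14 (adjusted p = 0.025). The lowest 2 vector lymphomas, at 67.5 and 62.7 CPM, were those of the earlier runs, and the difference was -0.08 within the earlier runs (adjusted p = 0.89) and -0.10 with a run term (adjusted p = 0.75). The call also ended without vector replicate 4 or without Myc replicate 3 (adjusted p = 0.05 to 0.051).

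Other rises were small. Tars, the threonine enzyme, rose by 0.53 ± 0.12, Qars, the glutamine enzyme, by 0.56 ± 0.13, and Iars, the isoleucine enzyme, by 0.47 ± 0.14. Eprs, a single protein that charges both glutamate and proline tRNAs, and Hars, the histidine enzyme, were called narrowly (0.40 ± 0.15 and 0.39 ± 0.16, adjusted p = 0.036 and 0.046). The call of Farsa ended without any 1 of normal replicates 2 to 4, vector replicates 6 to 8 or Myc replicates 1 and 7 (adjusted p = 0.05 to 0.071), and that of Eprs without any 1 of normal replicates 2 to 4, vector replicates 4, 5, 7 and 8 or Myc replicates 1, 2, 3, 6 and 7 (0.055 to 0.089). The call of Hars ended without any 1 of 15 samples, the other 5 being vector replicates 1 to 3 and Myc replicates 2 and 8 (0.061 to 0.12). The members not called ranged from -0.18 for Aars, the alanine enzyme, to 0.33 for Nars, the asparagine enzyme, with Dars, Sars, Lars, Yars, Mars, Wars and Vars between them.

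Within the earlier runs, where 8 Myc lymphomas meet 2 vector lymphomas, the median of the cytosolic set was 0.51, but edgeR called 0 of the 20 in either direction (8 higher and 0 lower at an unadjusted p under 0.05), when 2.97% of all genes were called higher and 4.4% lower. With run as a term 11 of the 20 rose and 0 fell, Lars joining the 10 (9.2% of all genes rose and 9.77% fell). Of the marker lists, the 8 plasma cell markers summed to 901 to 4440 CPM in Myc lymphomas and 4270 to 8460 CPM in vector lymphomas (0 rose and 3 fell), the 8 NK and cytotoxic markers summed to 158 to 637 CPM in Myc lymphomas and 31.0 to 76.3 CPM in vector lymphomas (7 of 8 rose), the 8 neutrophil markers to 1660 to 16500 and 55.0 to 5820 CPM (5 of 8 rose) and the 8 proliferation genes to 817 to 2190 and 489 to 1430 CPM (6 of 8 rose). The 8 T cell markers (3 rose, 1 fell) summed to 605 to 1380 and 456 to 913 CPM, the 7 plasmacytoid dendritic markers (5 rose) to 264 to 2130 and 321 to 439 CPM, and the 7 macrophage markers (1 rose, 1 fell) to 362 to 1280 and 537 to 2050 CPM. With a run term 5 NK and cytotoxic, 0 neutrophil, 5 proliferation, 1 T cell, 4 plasmacytoid dendritic and 0 macrophage genes rose. Under that term 1 plasma cell and 2 macrophage genes fell. Within the earlier runs the rises were 3, 0, 1, 0, 3 and 0 in the same order, and 0 plasma cell and 1 macrophage genes fell. The 13 mitochondrially encoded genes summed to 61600 to 230000 CPM in Myc lymphomas and 3110 to 78100 CPM in vector lymphomas; all 13 rose, and 0 were called by edgeR within the earlier runs or with a run term. None of these markers had a group median of 0, and their part in the synthetase levels was not tested.

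Of the 15 mitochondrial genes, 4 rose (Yars2, Iars2, Nars2 and Rars2), 2 fell (Hars2 and Ears2) and 9 were not called in Myc against vector lymphomas, at a median of 0.10. The share that rose was close to that of all genes tested (26.6%) and the share that fell was below it (21.9%). Yars2, the tyrosine enzyme (ENSMUSG00000022792), held 15.7, 19.4 and 33.0 CPM at the lowest, median and highest in Myc lymphomas, against 7.35, 12.5 and 19.9 CPM in vector lymphomas. The groups overlapped, and Yars2 rose by 0.70 ± 0.19 (adjusted p = 0.0046). Iars2, the isoleucine enzyme, rose by 0.45 ± 0.14, Nars2 by 0.56 ± 0.18 and Rars2, the arginine enzyme, by 0.39 ± 0.14, whose call ended without Myc replicate 1 or 7 (adjusted p = 0.059 for each).

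Hars2, the histidine enzyme (ENSMUSG00000019143), held 17.2, 24.8 and 31.9 CPM in Myc lymphomas, against 24.9, 37.2 and 43.1 CPM in vector lymphomas, and fell by 0.55 ± 0.15 (adjusted p = 0.0063). The vector lymphomas at 32.2 and 24.9 CPM, the lowest 2, were those of the earlier runs, and the difference was -0.19 within the earlier runs (adjusted p = 0.69) and -0.14 with a run term (adjusted p = 0.62). Ears2, the glutamate enzyme (ENSMUSG00000030871), held 15.2, 17.6 and 22.2 CPM in Myc lymphomas, against 18.2, 24.9 and 30.9 CPM in vector lymphomas. It fell by 0.41 ± 0.13 (adjusted p = 0.016), and the difference was 0.01 within the earlier runs (adjusted p = 0.99) and -0.02 with a run term (adjusted p = 0.94). Within the earlier runs 0 of the 15 mitochondrial genes were called in edgeR's test (4 higher and 0 lower at an unadjusted p under 0.05), and with a run term 3 rose (Iars2, Nars2 and Vars2, the valine enzyme) and 0 fell.

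**Figure D3:**
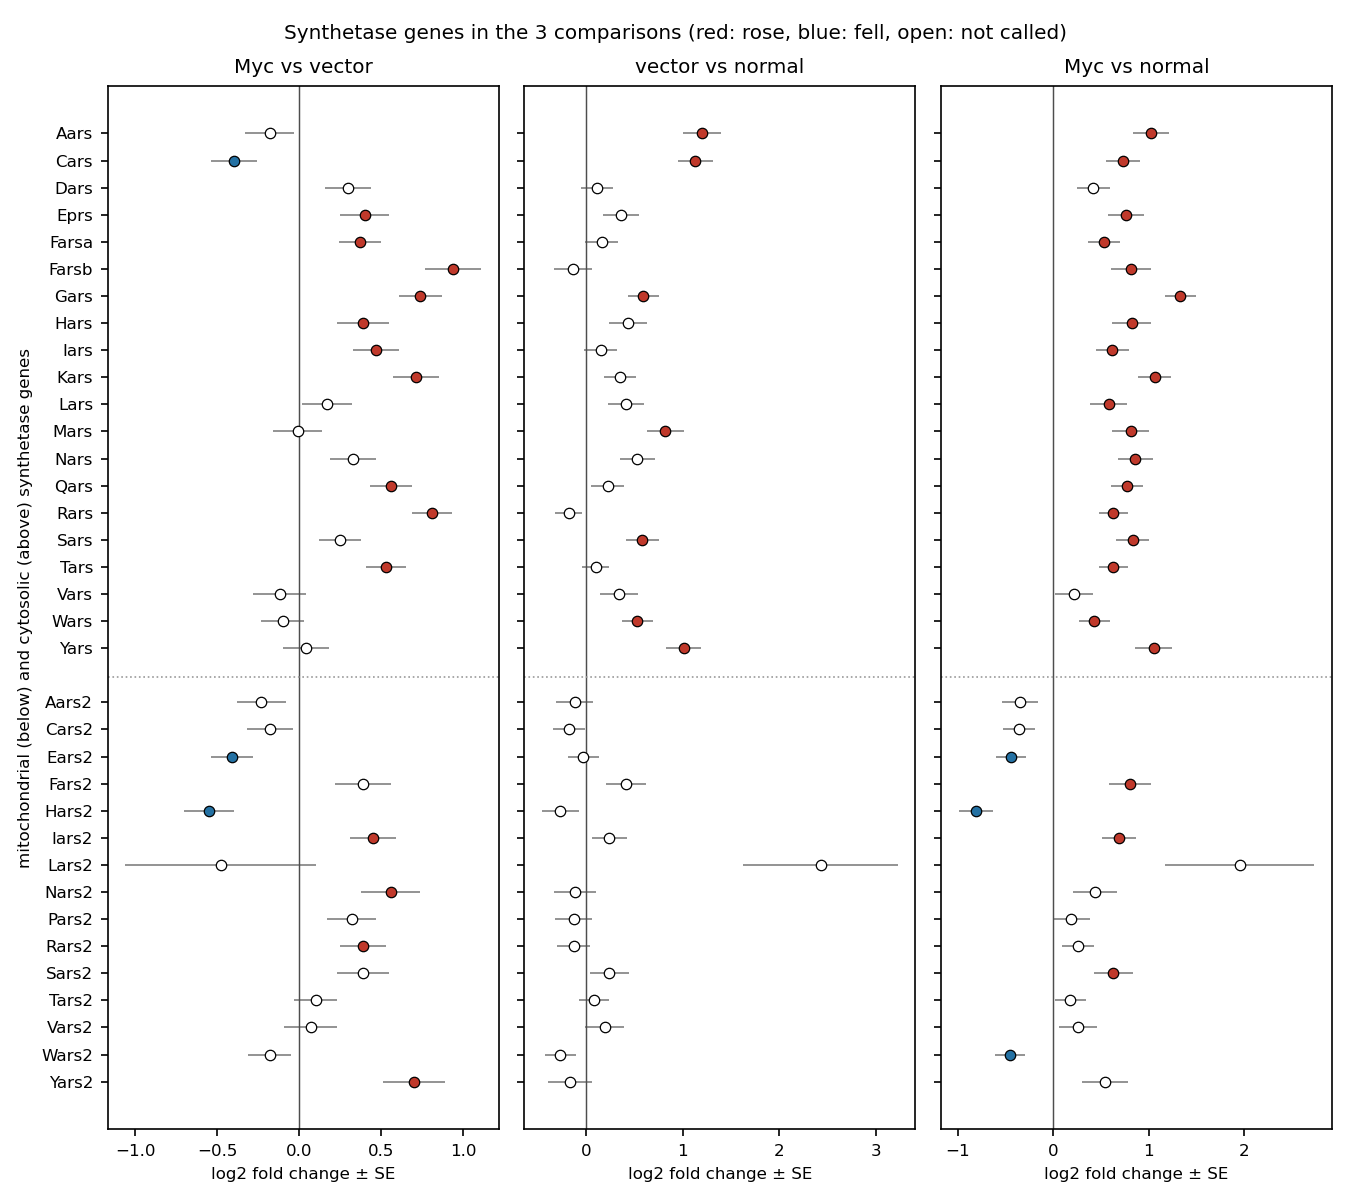
Log2 fold change ± SE of every synthetase gene in Myc against vector lymphomas, vector lymphomas against normal spleen and Myc lymphomas against normal spleen, with cytosolic genes above the dotted line and mitochondrial genes below it. Red points rose, blue points fell and open points were not called; red fills 18 of the 20 cytosolic rows in the right panel and 0 mitochondrial rows in the middle one.

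In vector lymphomas against normal spleen, which asks what the lymphoma without added Myc changed, 7 of the 20 cytosolic synthetases rose (Cars, Aars, Yars, Mars, Gars, Sars and Wars) and 0 fell, while 7.46% of all genes tested rose and 3.36% fell (10.8% in all). The cytosolic median was 0.39, against -0.03 over all genes. Of these 7 genes only Mars sits in the multi-synthetase complex. All vector lymphomas lay above all normal samples for 8 cytosolic genes, against 7.33% of all genes tested, and all lay below for 0, against 5.91%. The count of 0 that fell was also 0 with DESeq2 and at an unadjusted p under 0.05 in edgeR's test.

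Cars held 62.7 CPM at the lowest, 84.8 at the median and 93.1 at the highest in vector lymphomas, against 44.3, 34.5, 33.7 and 34.5 CPM in the 4 normal samples. The groups did not overlap, and Cars was 2.2-fold higher (1.13 ± 0.18, adjusted p = 0.00046). Aars (ENSMUSG00000031960) held 164, 225 and 272 CPM in vector lymphomas, against 102, 101, 94.3 and 86.2 CPM in normal spleen, and was 2.29-fold higher without overlap (1.2 ± 0.2, adjusted p = 0.0005). Yars, the tyrosine enzyme (ENSMUSG00000028811), held 65.7, 89.3 and 109 CPM in vector lymphomas, against 51.3, 41.7, 42.3 and 40.7 CPM in normal spleen, again without overlap (1.01 ± 0.18, adjusted p = 0.0014). Mars, the methionine enzyme (ENSMUSG00000040354), held 89.6, 122 and 147 CPM in vector lymphomas, against 90.2, 63.3, 64.2 and 56.0 CPM in normal spleen. The normal sample at 90.2 CPM, that of the later runs, lay above the lowest vector lymphoma (0.82 ± 0.19, adjusted p = 0.0075). Mars shares 68 exon bases on opposite strands with Ddit3, a stress-response transcription factor that rose as well (1.16 ± 0.26, adjusted p = 0.0056), and no source used here states whether strand was counted.

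Gars rose by 0.59 ± 0.16 (adjusted p = 0.018), Sars, the serine enzyme, by 0.58 ± 0.17 (adjusted p = 0.028) and Wars, the tryptophan enzyme, by 0.53 ± 0.16 (adjusted p = 0.04). Gars lost its call without normal replicate 2, 3 or 4, Sars without normal replicate 1, 3 or 4 or vector replicate 3, and Wars without any 1 of the 4 normal samples or of vector replicates 1, 2, 3, 4 and 6 (adjusted p = 0.053 to 0.12 over these). Of the complex enzymes not called, Kars stood at 0.35 ± 0.17 (adjusted p = 0.2), Eprs at 0.36 ± 0.19 and Rars at -0.18 ± 0.14.

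Of the 15 mitochondrial genes, 0 rose and 0 fell in edgeR's test of vector lymphomas against normal spleen, 1 was higher and 0 lower at an unadjusted p under 0.05, and DESeq2 called 1 higher and 0 lower. Their median was -0.12. The gene with the smallest p was Lars2 (ENSMUSG00000035202), at 1602, 2623 and 21920 CPM in vector lymphomas, against 436, 1503, 539 and 1229 CPM in normal spleen (2.43 ± 0.80, adjusted p = 0.055). All vector lymphomas lay above all normal samples, and vector replicate 1 alone made the highest value, the next being 3647 CPM. Fars2, the phenylalanine enzyme (ENSMUSG00000021420), followed at 17.5, 21.9 and 29.5 CPM in vector lymphomas, against 17.0, 15.3, 16.3 and 19.0 CPM in normal spleen (0.41 ± 0.21, adjusted p = 0.24).

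Within the earlier runs, with 2 vector lymphomas and 3 normal samples, edgeR called 0 cytosolic genes (5 higher and 0 lower at an unadjusted p under 0.05; 0.621% of all genes were called higher and 0.0432% lower), and the differences of Cars, Aars and Yars were 0.94, 0.82 and 0.74. With a run term 4 rose (Cars, Aars, Yars and Mars) and 0 fell, against 4.86% and 2.01% of all genes. The 8 plasma cell markers summed to 4270 to 8460 CPM in vector lymphomas and 453 to 792 CPM in normal spleen, 7 of the 8 rose, and the 7 erythroid markers summed to 742 to 4060 and 41.0 to 847 CPM, 6 of the 7 rising (8 plasma cell and 0 erythroid markers rose with a run term). Of the 8 proliferation genes 7 rose (489 to 1430 CPM in vector lymphomas and 304 to 647 CPM in normal spleen), and of the 8 NK and cytotoxic markers 7 fell (at most 76.3 CPM in vector lymphomas and at least 157 CPM in normal spleen). None of these lists had a marker with a group median of 0, and the part of such cells in the synthetase levels was not tested.

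Myc lymphomas stood furthest from normal spleen. Of the 20 cytosolic synthetases 18 rose and 0 fell, with only Dars, the aspartate enzyme, and Vars not called, while 21.5% of all genes tested rose and 17.9% fell (39.4% in all). The count of 0 was also 0 with DESeq2 and at an unadjusted p under 0.05 in edgeR's test. The cytosolic median was 0.77, against 0.08 over all genes, and all 20 differences were above 0. In 15 genes all Myc lymphomas lay above all normal samples, against 13.1% of all genes tested. Within the earlier runs, 8 Myc lymphomas and 3 normal samples, 17 of the 20 rose and 0 fell (12.7% and 7.97% of all genes), and with a run term 18 rose and 0 fell (20.6% and 16.3%).

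Gars held 152 CPM at the lowest, 182 at the median and 278 at the highest in Myc lymphomas, against 90.2, 76, 71.9 and 71.9 CPM in normal spleen. It was 2.52-fold higher without overlap (1.33 ± 0.16, adjusted p = 6.3e-06; 1.45 within the earlier runs, adjusted p = 0.0012). Kars held 169, 226 and 319 CPM in Myc lymphomas, against 118, 114, 115 and 107 CPM in normal spleen (1.06 ± 0.17, adjusted p = 0.00012). Yars held 71.5, 86.5 and 131 CPM in Myc lymphomas, against 51.3, 41.7, 42.3 and 40.7 CPM in normal spleen (1.05 ± 0.19, adjusted p = 0.00024). Aars held 149, 178 and 290 CPM in Myc lymphomas, against 102, 101, 94.3 and 86.2 CPM in normal spleen (1.02 ± 0.19, adjusted p = 0.00045). None of the 4 genes overlapped between the groups. The other 14 rises ran from 0.43 for Wars to 0.86 for Nars. The call of Wars ended without any 1 of the 4 normal samples or of Myc replicates 4, 6 and 7, and those of Farsa and Lars, the leucine enzyme, without normal replicate 2, 3 or 4 (adjusted p = 0.05 to 0.11).

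Of the 15 mitochondrial genes, 3 rose (Iars2, Fars2 and Sars2) and 3 fell (Hars2, Wars2 and Ears2) in Myc lymphomas against normal spleen, at a median of 0.26. These shares are close to those of all genes tested, of which 21.5% rose and 17.9% fell. Hars2 held 17.2, 24.8 and 31.9 CPM in Myc lymphomas, against 61.3, 36.4, 38.3 and 38.2 CPM in normal spleen, and all Myc lymphomas lay below all normal samples (-0.81 ± 0.18, adjusted p = 0.0018; -0.58 within the earlier runs, adjusted p = 0.06; -0.65 with a run term, adjusted p = 0.0039). Downward separation of this kind was seen in 14.3% of all genes. Iars2 (ENSMUSG00000026618) held 73.9, 112 and 157 CPM in Myc lymphomas, against 81.2, 65.9, 73.5 and 69.5 CPM in normal spleen, with overlap (0.69 ± 0.18, adjusted p = 0.0051). Fars2 held 20.7, 26.1 and 53.5 CPM in Myc lymphomas, against 17.0, 15.3, 16.3 and 19.0 CPM in normal spleen, without overlap (0.80 ± 0.22, adjusted p = 0.0065). Sars2, the serine enzyme, rose by 0.63 ± 0.20, and Wars2 and Ears2 fell by 0.45 ± 0.16 and 0.44 ± 0.16. The calls of Sars2 (without normal replicate 4), Wars2 (without normal replicate 1, 3 or 4 or Myc replicate 3) and Ears2 (without those 4 or Myc replicate 1) each ended, with adjusted p of 0.05 to 0.24. Ears2 also lost its call with a run term (-0.30, adjusted p = 0.084) and within the earlier runs (-0.29, adjusted p = 0.23), as Wars2 (-0.38, adjusted p = 0.19) and Sars2 (0.69, adjusted p = 0.06) did within the earlier runs. The 8 neutrophil and 7 erythroid markers all rose in Myc lymphomas against normal spleen, the neutrophil sum being 1660 to 16500 CPM in Myc lymphomas and 79.7 to 906 CPM in normal spleen and the erythroid sum 2080 to 9300 and 41.0 to 847 CPM. All 8 plasma cell markers rose as well (901 to 4440 CPM in Myc lymphomas and 453 to 792 CPM in normal spleen), as did all 8 proliferation genes (817 to 2190 and 304 to 647 CPM), and 6 of the 9 pan-B-cell markers fell. The part of these lists was not tested.

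Read gene by gene over the 3 comparisons, which share samples in pairs, the cytosolic set fell into a few patterns of calls. Eprs, Farsa, Farsb, Hars, Iars, Kars, Qars, Rars and Tars rose in Myc lymphomas against both other groups. They were not called between vector lymphomas and normal spleen, where they ranged from -0.18 (Rars) to 0.43 (Hars). Of them, Kars alone had all vector lymphomas above all normal samples. The calls of Eprs, Farsa and Hars in Myc against vector lymphomas depended on single samples, as given above. Aars, Mars, Sars, Wars and Yars rose in both lymphoma groups against normal spleen and were not called between the lymphoma groups. Gars was the 1 member that rose in all 3 comparisons. Of the 5 genes whose matched window holds the response element core, Gars, Aars and Yars rose in vector lymphomas against normal spleen, while Iars and Tars stood at 0.15 ± 0.17 and 0.10 ± 0.14 there and rose in Myc against vector lymphomas. Of the 4 cytosolic genes with the E-box, Farsb, Iars and Tars rose in Myc against vector lymphomas, and Aars did not (-0.18 ± 0.15, adjusted p = 0.34). In the whole cytosolic set 7 of 20 rose in vector lymphomas against normal spleen and 10 of 20 in Myc against vector lymphomas. The shares of all genes tested were 7.46% and 26.6%. Only 13 of the 20 had a window, and a link between motif and change was not tested.

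Averaged over the genes of a set, the cytosolic level spanned 6.88 to 7.39 log2 CPM (Myc lymphomas), 6.55 to 6.97 (vector lymphomas) and 6.24 to 6.52 (normal spleen), so that both lymphoma groups lay above every normal sample. The mitochondrial level, over the 14 genes other than Lars2, was 4.42 to 4.77, 4.17 to 4.59 and 4.33 to 4.66, and the 3 groups overlapped. The difference of the sets within a sample spanned 2.31 to 2.73 (Myc lymphomas), 2.12 to 2.48 (vector lymphomas) and 1.79 to 1.99 (normal spleen); with Lars2 included it was 1.85 to 2.27, 1.69 to 2.02 and 1.46 to 1.58. These averages are a description and carry no p.

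**Figure D4:**
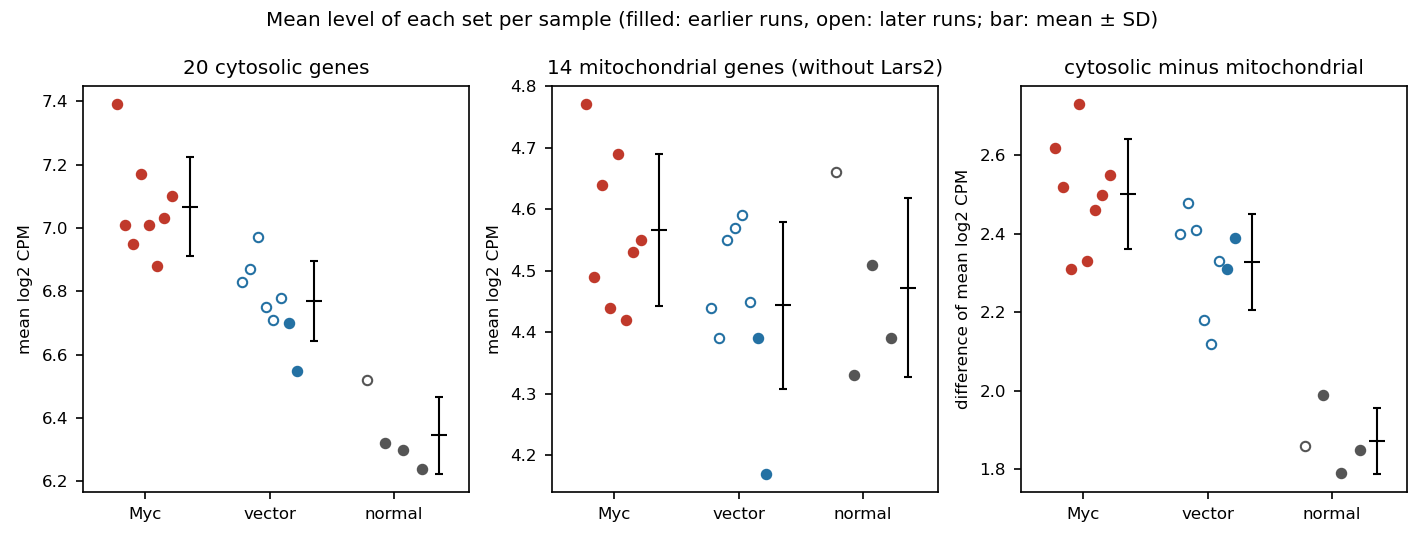
Mean log2 CPM of the 20 cytosolic genes, of the 14 mitochondrial genes other than Lars2, and their difference, in every sample from Myc lymphomas, vector lymphomas and normal spleen, with the mean ± SD of each group; filled points are earlier runs and open points later ones. The cytosolic level and the difference lie above every normal sample in both lymphoma groups, while the mitochondrial levels of the groups overlap.

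Paired by amino acid, 16 pairs can be made, Eprs standing for both glutamate and proline and Fars2 for both chains of the phenylalanine enzyme. The cytosolic partner had the higher log2 fold change in 10 of the 16 pairs in Myc against vector lymphomas, in 11 in vector lymphomas against normal spleen and in 11 in Myc lymphomas against normal spleen. In the last comparison Farsb and Fars2 stood at 0.81 and 0.80, and their difference, which rounded to 0, was counted for neither partner. Partners were called in opposite directions for glutamate (Eprs 0.76, Ears2 -0.44, whose call ended with a run term), histidine (Hars 0.82, Hars2 -0.81) and tryptophan (Wars 0.43, Wars2 -0.45) in Myc lymphomas against normal spleen. Hars and Hars2 are neighbours on opposite strands and share 195 exon bases, so reads from that stretch cannot be told apart if strand was not used in counting. The isoleucine pair moved together, Iars by 0.62 and Iars2 by 0.69 in the same comparison, and Iars2 shares 22.9% of its exon bases with Rab3gap2 on the other strand.

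Lars2 had the widest spread of the 35 members relative to its mean in each group. It held 1476 CPM at the lowest, 2313 at the median and 13397 at the highest in Myc lymphomas, 1602, 2623 and 21916 CPM in vector lymphomas, and 436 to 1503 CPM in normal spleen. The samples at the top were Myc replicate 6 and vector replicate 1. The same 2 samples held 133 and 275 CPM of n-R5s193, a 5S ribosomal RNA gene, where the other samples held 0.272 to 42.1 CPM, and 109 and 90.5 CPM of Gm15564, where the other samples held 0.876 to 25.7 CPM. These 2 genes were chosen after the values were seen, and their part in the Lars2 level was not tested. Lars2 was not called in edgeR's main test in any comparison (adjusted p = 0.51, 0.055 and 0.051 in Myc against vector lymphomas, vector lymphomas against normal spleen and Myc lymphomas against normal spleen). DESeq2 called it higher in vector lymphomas (1.48, adjusted p = 0.024) and in Myc lymphomas (1.98, adjusted p = 0.00039) against normal spleen, and edgeR with a run term in Myc lymphomas against normal spleen (2.04, adjusted p = 0.046).

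All 3 scaffold genes of the multi-synthetase complex rose in Myc against vector lymphomas and in Myc lymphomas against normal spleen. Over all genes tested, 26.6% and 21.5% rose in these comparisons, and 5.12% lay higher without overlap in Myc against vector lymphomas. Aimp2 held 32.0, 41.4 and 85.9 CPM at the lowest, median and highest in Myc lymphomas, against 8.2, 13.7 and 19.7 CPM in vector lymphomas, without overlap (1.78 ± 0.22, adjusted p = 2.5e-06). Eef1e1, also without overlap, held 30.1, 36.5 and 68.4 CPM in Myc lymphomas, against 16.2, 20.5 and 28.5 CPM in vector lymphomas (0.96 ± 0.16, adjusted p = 7e-05). Aimp1 rose by 0.82 ± 0.22 (adjusted p = 0.0047). With a run term 2 of the 3 were called in Myc against vector lymphomas (Aimp1 at 0.69, adjusted p = 0.14), where 9.2% of all genes rose. Within the earlier runs 1 was called, Aimp2 (1.39, adjusted p = 0.03), where 2.97% of all genes rose. In the main fit 5 of the 8 complex enzymes rose and 0 fell in Myc against vector lymphomas, at a median of 0.43. The difference from the scaffold genes was not tested. None of the 3 scaffold genes was called between vector lymphomas and normal spleen (-0.16 to 0.17).

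Lists of genes that act before or after the synthetases also held called members in Myc against vector lymphomas. Of 8 genes for tRNA end maturation and proofreading, 5 rose and 0 fell, led by Dtd2, which removes wrongly charged amino acids (1.26 ± 0.23, adjusted p = 0.00018), and Aarsd1 (0.85 ± 0.18, adjusted p = 0.00063). Of 6 cytosolic elongation factor genes, among which Eef2k encodes the inhibitory kinase of Eef2, 5 rose and 0 fell, with Eef1b2 at 1.69 ± 0.27 and Eef2 at 0.67 ± 0.17. Of 8 mitochondrial translation factors, 2 rose and 0 fell, Tufm by 0.53 ± 0.17 and Tsfm by 0.49 ± 0.17. Of 6 helpers of mitochondrial charging, 3 rose and 1 fell, with Gatc, a subunit of the enzyme that makes glutaminyl-tRNA in mitochondria, at 1.17 ± 0.18. Of all genes tested 26.6% rose, and the share of the mitochondrial translation factors was below that. With a run term 4 of the end maturation, 3 of the elongation factor, 0 of the mitochondrial translation factor and 1 of the helper genes rose and 0 fell, and within the earlier runs 1 gene of these lists was called, the elongation factor kinase Eef2k (adjusted p = 0.0096). Between vector lymphomas and normal spleen, edgeR called 1 of these 28 genes, Mtfmt, which puts the formyl group on mitochondrial initiator tRNA and which fell by 0.65 ± 0.17.

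Amino acid response genes were called in both directions. In vector lymphomas against normal spleen 9 of the 15 tested rose and 1 fell, at a median of 1.16. Of all genes tested 7.46% rose and 3.36% fell there. Atf4 held 408, 690 and 841 CPM at the lowest, median and highest in vector lymphomas, against 267, 234, 229 and 297 CPM in normal spleen, without overlap (1.38 ± 0.22, adjusted p = 0.00047). Asns, which makes asparagine, held 17.8, 34.0 and 43.3 CPM in vector lymphomas, against 2.03, 4.81, 2.74 and 1.88 CPM in normal spleen (3.53 ± 0.36, adjusted p = 1.2e-05). In Myc against vector lymphomas 5 of the 15 rose and 4 fell, while 26.6% of all genes tested rose and 21.9% fell. Asns rose further, with 53.1, 106 and 149 CPM in Myc lymphomas (1.67 ± 0.25, adjusted p = 2e-05). Psat1, of serine synthesis, also rose (1.40 ± 0.20, adjusted p = 1.1e-05). Atf4 fell, with 196, 299 and 425 CPM in Myc lymphomas (-1.07 ± 0.17, adjusted p = 5.6e-05). With a run term 7 rose and 1 fell in vector lymphomas against normal spleen (4.86% and 2.01% of all genes). With that term 5 rose and 3 fell in Myc against vector lymphomas (9.2% and 9.77% of all genes). Within the earlier runs 4 rose and 0 fell in vector lymphomas against normal spleen (0.621% and 0.0432% of all genes). In Myc against vector lymphomas 0 rose in those runs, so that neither Asns nor Psat1 was called, and 1 fell (2.97% and 4.4% of all genes). Atf4 in Myc lymphomas was not called against normal spleen (0.31 ± 0.21, adjusted p = 0.24). Ddit4, an inhibitor of mTORC1 signalling, ran the other way, higher in Myc than in vector lymphomas (1.67 ± 0.29) and lower in vector lymphomas than in normal spleen (-1.69 ± 0.33).

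Wars is known to be induced by interferon-gamma. In Myc against vector lymphomas 8 of 10 interferon-gamma response genes fell and 1 rose, with Irf1 at -1.44 ± 0.18 and Tap1 at -0.91 ± 0.15, while Wars stood at -0.10 ± 0.13 (adjusted p = 0.56). Over all genes tested, 21.9% fell and 26.6% rose. With a run term 7 of the interferon genes fell and 0 rose (9.77% and 9.2% of all genes). Within the earlier runs 1 fell and 0 rose (4.4% and 2.97% of all genes). Wars held 82.5, 89.4 and 146 CPM at the lowest, median and highest in Myc lymphomas, 82.7, 102 and 121 CPM in vector lymphomas and 76.9, 68.5, 71.5 and 66.3 CPM in normal spleen. For Wars both lymphoma groups lay above every normal sample, a pattern that 7.33% of all genes showed for vector and 13.1% for Myc lymphomas. The 10 interferon genes summed to 506 to 1050 CPM in Myc lymphomas, 1360 to 2020 CPM in vector lymphomas and 1260 to 1510 CPM in normal spleen. Between vector lymphomas and normal spleen 1 of them rose and 1 fell (7.46% and 3.36% of all genes), at a median of 0.17. Their part in the Wars level was not tested.

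**Figure D5:**
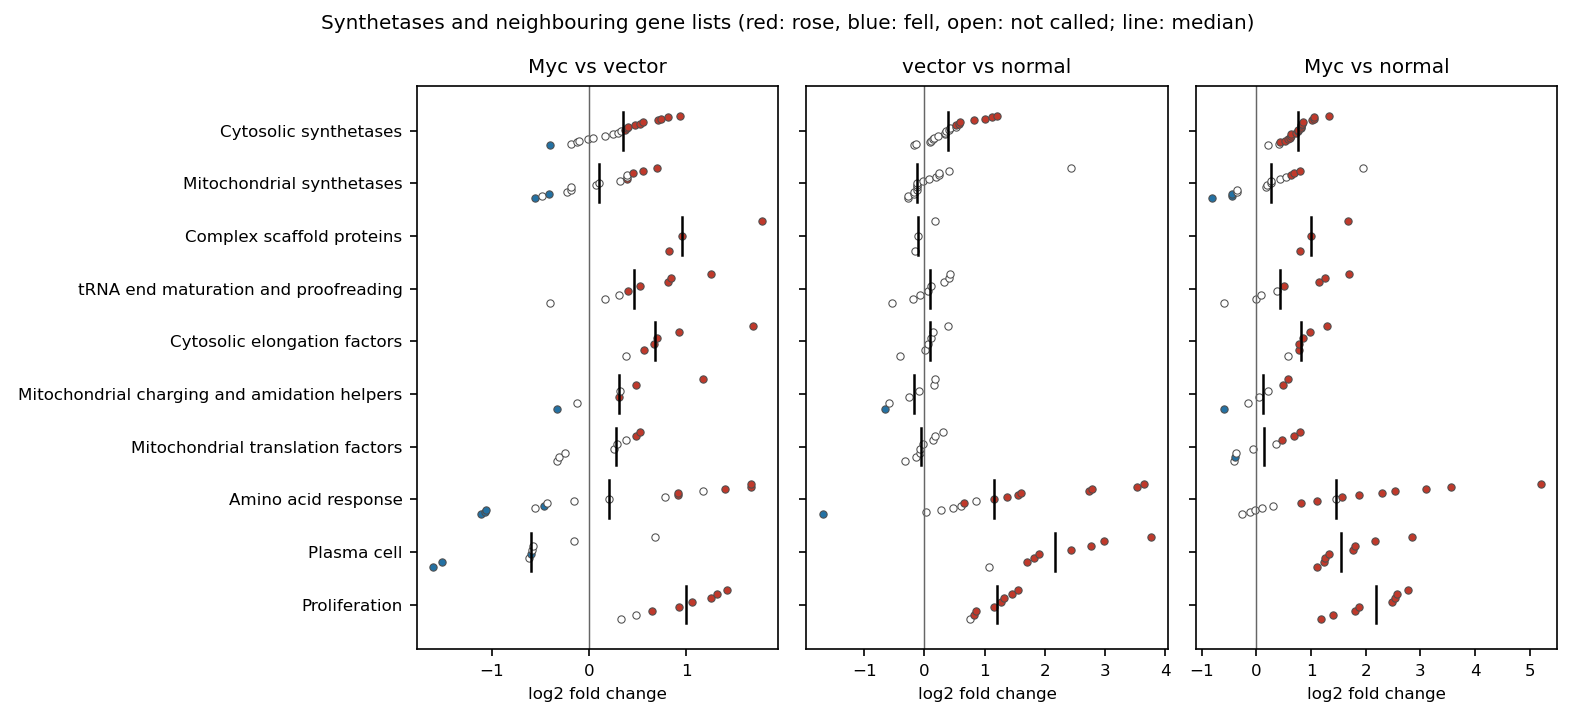
Log2 fold change of each tested gene of the synthetase sets and neighbouring lists in Myc against vector lymphomas, vector lymphomas against normal spleen and Myc lymphomas against normal spleen; each point is a gene, the vertical line is the list's median, red points rose, blue points fell and open points were not called. In the middle panel the points of the amino acid response and plasma cell lists reach 3.65 and 3.77, and the medians of the scaffold, elongation factor and mitochondrial lists lie between -0.18 and 0.08; the point of the mitochondrial synthetases at 2.43 is Lars2.

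Within groups the synthetases moved together loosely. After the mean of each group was taken out, median Pearson correlations over the 20 samples were computed. They were 0.29 for 190 pairs of cytosolic genes, 0.14 for 105 pairs of mitochondrial genes and 0.14 for 300 mixed pairs. For cytosolic genes with all genes tested the median was -0.02. Without Myc replicate 5 these medians were 0.39, 0.16, 0.2 and -0.02. Over all 20 samples Yars, Mars, Eprs, Gars and Hars had the highest median correlation with the other cytosolic genes (0.54 to 0.46). Farsb and Rars, 2 of the genes furthest up in Myc against vector lymphomas, had -0.04 and 0.01. The points share their libraries and the run split, and the values are given as a description. Class I and class II synthetases are the 2 unrelated folds of the catalytic domain, and Eprs was counted in neither list. In Myc lymphomas against normal spleen 9 of 17 class I members rose and 2 fell, at a median of 0.58. Of 17 class II members 11 rose and 1 fell, at a median of 0.63. Of all genes tested 21.5% rose and 17.9% fell there.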

How the data were processed

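RNA of 20 samples was sequenced on Ion Proton instruments. The authors deposited a table of raw read counts per Ensembl gene; BWA 0.7.5a, Picard 1.119, HTSeq and the mm9 build are listed, per the submitters' processing notes. No source used here states the strand setting. The 5 lines for reads assigned to no gene were left out (genes took 37.1 to 57.0% of listed reads). Counts were filtered by group (filterByExpr), scaled by TMM and fitted with edgeR 4.0.16 in R 4.3.3: 1 quasi-likelihood fit of 20 samples in 3 groups, two-sided, Benjamini-Hochberg over 17824 genes. DESeq2 1.42.0, RLE scaling, no filter, a run or instrument term, earlier runs only and leaving out samples were alternatives. The script was tested on simulated data. Names, lengths and overlaps came from GENCODE, promoters from RefSeq GRCm38.p6. The members and lists were chosen with earlier results of these data known. Full values are given for Myc, for the 4 cytosolic and 2 mitochondrial members with the smallest p in each comparison, for members called against their set, for Asns, Atf4, Eef1e1, Wars, Gars and Kars, and for 2 to 4 members of each list with the smallest p in Myc against vector lymphomas.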

Additional observations from a re-analysis of the deposited data

Results flagged for a closer look

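In 10 of 105 groups of a gene's values, 1 sample stood apart from the rest by Dixon's criterion, where chance gives about 1 in 20 groups. Normal replicate 1, the normal sample of the later runs, was highest in 4 genes: Cars at 44.3 CPM (others 33.7 to 34.5), Eprs at 151 CPM (others 106 to 109), Yars at 51.3 CPM (others 40.7 to 42.3) and Hars2 at 61.3 CPM (others 36.4 to 38.3). Myc replicate 5 was highest in 3 genes: Farsb at 166 CPM (others 76.5 to 109), Fars2 at 53.5 CPM (others 20.7 to 30.7) and Sars2 at 32.7 CPM (others 13.4 to 22.3). Wars was highest in Myc replicate 4 at 146 CPM (others 82.5 to 95.6). Lars2 was highest in Myc replicate 6 at 13400 CPM (others 1480 to 2990) and in vector replicate 1 at 21900 CPM (others 1600 to 3650).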

How the results depend on the processing

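Within the earlier runs, 0 cytosolic genes rose and 0 fell in Myc against vector lymphomas, 0 mitochondrial genes rose and 0 fell there, 0 cytosolic genes rose in vector lymphomas against normal spleen and 0 mitochondrial genes fell in Myc lymphomas against normal spleen; that setting holds fewer samples. With a run term 0 cytosolic and 0 mitochondrial genes fell in Myc against vector lymphomas, and 4 cytosolic genes rose in vector lymphomas against normal spleen. With an instrument term, chosen after seeing the data, these were 1 mitochondrial fall, 4 cytosolic rises and 1 mitochondrial fall in Myc lymphomas against normal spleen. DESeq2, and leaving out Myc replicate 5 with vector replicate 8 (also chosen after seeing the data), each gave 1 mitochondrial rise in vector lymphomas and 5 in Myc lymphomas, both against normal spleen. The cause was not tested. Leaving out 1 sample at a time gave, in Myc against vector lymphomas, 7 to 11 cytosolic rises, 0 to 1 cytosolic falls and 3 to 6 mitochondrial rises; in vector lymphomas against normal spleen, 4 to 8 cytosolic rises (4 without normal replicate 3 or 4) and 0 to 1 mitochondrial rises; and in Myc lymphomas against normal spleen, 15 to 19 cytosolic rises, 2 to 5 mitochondrial rises (5 without Myc replicate 5) and 1 to 4 mitochondrial falls (1 without normal replicate 1, 3 or 4 or Myc replicate 3). Without a filter 7 cytosolic genes rose in Myc against vector lymphomas.

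Log2 fold changes that turned sign were, in Myc against vector lymphomas within the earlier runs, Aars 0.26, Mars 0.34, Vars 0.31, Wars 0.17, Aars2 0.08, Ears2 0.01 and Lars2 1.05; with a run term, Aars 0.14, Mars 0.36, Vars 0.25, Wars 0.11, Aars2 0.02 and Lars2 0.37; and otherwise Mars 0.03 (instrument term), Yars -0.02 (no filter), Lars2 0.50 (DESeq2) and Tars2 -0.01 (both samples out). In vector lymphomas against normal spleen they were Farsa -0.12, Farsb 0.12, Rars 0.03, Iars2 -0.02, Tars2 -0.24, Vars2 -0.31 and Yars2 0.19 within the earlier runs; Farsa -0.06, Farsb 0.01, Tars2 -0.13 and Vars2 -0.16 with a run term; and Ears2 at 0.00 (RLE), 0.00 (DESeq2), 0.01 (instrument term) and 0.05 (both samples out). With 1 sample left out, Mars ran from -0.10 to 0.04, Yars from -0.06 to 0.08, Lars2 from -1.25 to 0.48 and Vars2 from -0.02 to 0.16 in Myc against vector lymphomas, and Ears2 from -0.08 to 0.14 and Nars2 from -0.19 to 0.04 in vector lymphomas against normal spleen. No paired analysis was possible because the replicate numbers only name samples in accession order.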
